A study of Bos taurus with 8 samples.

Results

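Complement genes were followed in bovine skeletal muscle, in bulls of 2 well-marbled breeds, Hereford and Holstein-Friesian, set against bulls of the lean Limousin breed. The list held 9 genes: C1QA, C1QB, C1QC, C1S, C4A, C3, CFB, CFD and CFI. A gene was measured here when the RefSeq transcript printed beside a probe of the array belonged to it, and 6 of the 9 genes had such a probe. All 6 also passed the filter, which asked for a signal well above background in at least 4 of 16 channel readings. They stand among 6693 named genes measured the same way. C1QB, C1QC and C1S had no named probe and are not analysed further.

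The tissue was the semitendinosus, a muscle of the hind limb, taken from 12 bulls aged 15 months, with 4 bulls of each breed. Each of 8 arrays with 2 colours carried RNA of a marbled bull and of a Limousin bull. On the first slide Hereford always carried Cy5 and Limousin Cy3, and on the other Holstein-Friesian always carried Cy3 and Limousin Cy5. Both slides used the same 4 Limousin bulls, so the ratios of the marbled breeds share their Limousin RNA. Breed, dye and slide cannot be told apart in a ratio of 1 breed. A dye effect common to both slides drops out of the mean of both breeds but is counted double in their difference. Median net signal was 97 to 139 intensity units in Hereford and 30.5 to 46.5 in Holstein-Friesian, against 63 to 88 in Limousin in Cy3 and 96.5 to 118 in Cy5. Muscle fibre markers, among them TNNC2, MB and MYH1, were well above background. Precision is limited by the small number of arrays, and in whole muscle a change in the number of cells of a type and a change in RNA per cell cannot be told apart.

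Complement is a cascade of proteases and binding proteins that tags microbes, dying cells and debris and draws in immune cells. The classical route starts with C1q, whose chains are made by C1QA, C1QB and C1QC and largely by macrophages, and runs through C1S and C4 to the cleavage of C3. In the alternative route factor D (CFD, also named adipsin and secreted by fat cells) cuts factor B (CFB) bound to C3b, and factor I (CFI) breaks down C3b and C4b. The liver makes most complement protein of the blood, and other tissues transcribe many of these genes locally.

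The genes were chosen by their log2 ratios of each breed over Limousin on these same arrays, and by the difference of those ratios between the breeds. Their ratios and the calls made from them are therefore given as a description, and nothing is supported by them. A call means a Benjamini-Hochberg adjusted p under 0.05 over all 17061 probes in limma's moderated test. All ratios are log2 values of the marbled breed over Limousin, given in the order of Limousin bulls 1 to 4, and errors are SD over 4 arrays.

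In Hereford the 6 genes had mean ratios of -1.23 to -0.11, all below 0, with a median of -0.38 against 0.01 over all probes. In Holstein-Friesian the same genes had mean ratios of 0.11 to 1.48, all above 0, with a median of 1.15 against -0.01. C4A alone was called lower in Hereford, where 3.75% of all probes were called lower. C4A, CFB, CFD and C3 were called higher in Holstein-Friesian, where 3.00% of all probes were called higher. Only C4A was called in both breeds, and its directions were opposite, as in 0.281% of all probes.

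**Figure D1:**
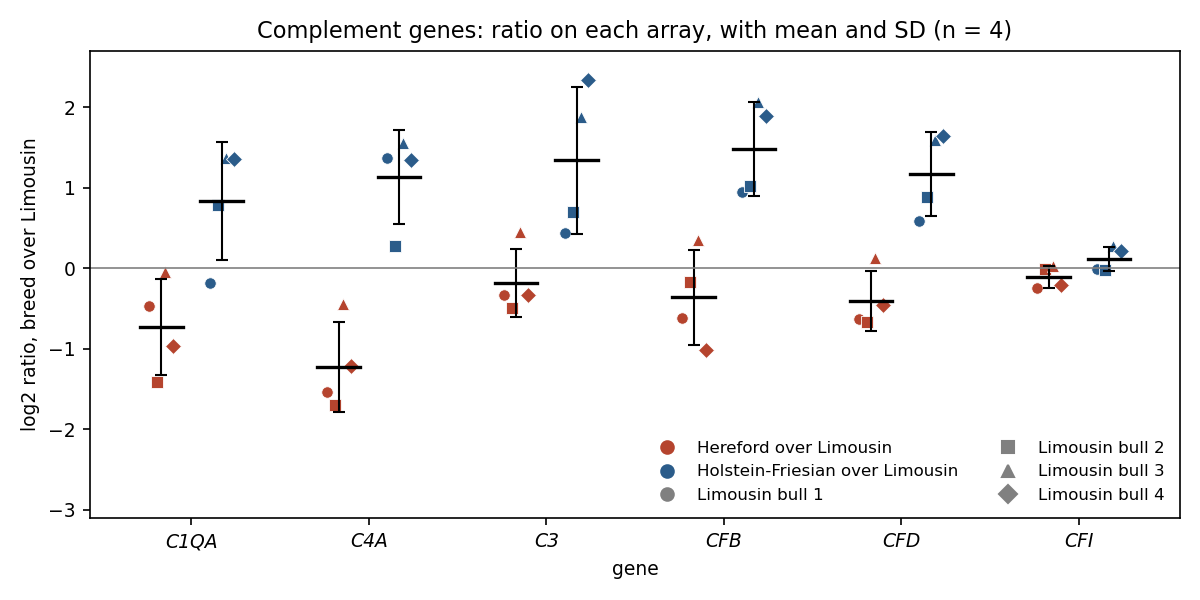
Log2 ratio of breed over Limousin (vertical axis) for the 6 measured complement genes on each of 8 arrays, coloured by breed and shaped by Limousin bull; black bars are the mean and SD over 4 arrays. C4A lies below 0 on all Hereford arrays and above 0 on all Holstein-Friesian arrays, and every gene has its highest Hereford ratio against bull 3.

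Among the genes of the classical route, C4A encodes the fourth component, which is cleaved by C1s and forms the C3 convertase with C2. Hereford ratios of C4A (probe A_73_113565) were -1.54, -1.70, -0.45 and -1.21, with a mean of -1.23 ± 0.56 (SD, n = 4), or 2.34-fold lower than Limousin. Holstein-Friesian ratios were 1.37, 0.27, 1.55 and 1.34, with a mean of 1.14 ± 0.58 (SD, n = 4), or 2.20-fold higher. All 4 Hereford arrays were below Limousin and all 4 Holstein-Friesian arrays above it, a pattern that 1.55% of probes showed. The low Holstein-Friesian value against bull 2 and the high Hereford value against bull 3 stood apart from the other 3 arrays of their breed. In the median-centred ratios, which replace loess, the Holstein-Friesian mean of C4A was 0.53 and the Hereford mean -1.01, and neither was called. Near-identical copies of C4 exist in many mammals, and whether this probe reads more than 1 copy was not tested.

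C1QA encodes the A chain of C1q, the recognition unit of the classical route. Its Hereford ratios (probe A_73_118275) were -0.47, -1.42, -0.05 and -0.97, with a mean of -0.73 ± 0.60 (SD, n = 4). Its Holstein-Friesian ratios were -0.19, 0.78, 1.37 and 1.36, with a mean of 0.83 ± 0.73 (SD, n = 4). Hereford was below Limousin on all 4 arrays, Holstein-Friesian was above it on 3 of 4, and the ranges of the breeds overlapped. C1QA was called in neither breed.

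C3 encodes the central component on which all routes converge. Hereford ratios (probe A_73_111379) were -0.34, -0.49, 0.44 and -0.33, with a mean of -0.18 ± 0.42 (SD, n = 4). Holstein-Friesian ratios were 0.43, 0.70, 1.88 and 2.34, with a mean of 1.34 ± 0.92 (SD, n = 4), or 2.53-fold higher than Limousin. The 4 Holstein-Friesian values thus split into a lower and a higher pair, and the lowest of them did not clear the Hereford value against bull 3. The spread of C3 in Holstein-Friesian was wider than that of 99.06% of all probes.

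For the alternative route, CFB encodes factor B, the serine protease of the alternative C3 convertase. Hereford ratios (probe A_73_118840) were -0.62, -0.17, 0.35 and -1.02, with a mean of -0.36 ± 0.59 (SD, n = 4). Holstein-Friesian ratios were 0.95, 1.02, 2.06 and 1.89, with a mean of 1.48 ± 0.58 (SD, n = 4), or 2.79-fold higher than Limousin. The lowest Holstein-Friesian value exceeded the highest Hereford value. With the processed signals of the scanner, to which no offset is added, the Holstein-Friesian ratio of CFB was 2.67 and the difference between the breeds -3.51, both called.

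CFD encodes factor D, which activates factor B. Hereford ratios (probe A_73_121063) were -0.63, -0.67, 0.13 and -0.46, with a mean of -0.41 ± 0.37 (SD, n = 4). Holstein-Friesian ratios were 0.59, 0.89, 1.59 and 1.64, with a mean of 1.17 ± 0.52 (SD, n = 4), or 2.26-fold higher than Limousin. The breeds did not overlap, and in Holstein-Friesian the values against bulls 3 and 4 were the higher ones, as they were for CFB and C3. Median centring gave CFD a Holstein-Friesian mean of 0.57, which was not called.

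CFI, the inhibitor of the list, encodes the protease that inactivates C3b and C4b. It sat nearest to the filter, with 7 of 16 readings well above background, whereas the other 5 genes had 16 of 16. Its mean ratios (probe A_73_102018) were -0.11 ± 0.14 (SD, n = 4) in Hereford and 0.11 ± 0.15 (SD, n = 4) in Holstein-Friesian. Neither was called, and only 1 of 4 Holstein-Friesian readings and 2 of 4 Hereford readings of CFI were well above background. No member lay just outside the filter.

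Calls in Holstein-Friesian depended on which arrays were included. Leaving out a Limousin bull also left out the Hereford and the Holstein-Friesian bull on its arrays, so their parts cannot be told apart. Leaving out the arrays of bull 1 left CFB (1.66), CFD (1.37) and C3 (1.64) called and ended the call of C4A (1.06). Without bull 2, 3 or 4 none of the 6 genes was called, although all 6 stayed above 0, with C4A at 1.42, 1.00 and 1.07. CFB was then at 1.63, 1.29 and 1.34, CFD at 1.27, 1.04 and 1.02, and C3 at 1.55, 1.16 and 1.01. The Hereford ratio of C4A was -1.49 and still called without bull 3, and it was not called without bull 1 (-1.12), bull 2 (-1.07) or bull 4 (-1.23). Probes called over the whole array fell in these smaller fits too, from 1100 to as few as 78 in Holstein-Friesian and from 1218 to as few as 30 in Hereford. Fitted from its own 4 arrays alone, Hereford had no call among the 6 genes and Holstein-Friesian had CFB and CFD.

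The breeds were next set against each other through the Limousin bull they shared, as the Hereford ratio minus the Holstein-Friesian ratio. For C4A the differences were -2.91, -1.97, -2.0 and -2.56, with a mean of -2.36 ± 0.46 (SD, n = 4), or 5.14-fold lower in Hereford. CFB differed by -1.57, -1.19, -1.71 and -2.91, with a mean of -1.84 ± 0.74 (SD, n = 4), or 3.58-fold. Differences of CFD were -1.21, -1.56, -1.46 and -2.10, with a mean of -1.58 ± 0.37 (SD, n = 4), or 2.99-fold. All 12 of these values were below 0, and the Hereford and Holstein-Friesian ratios of C4A, CFB and CFD did not overlap. Hereford ratios lay wholly below Holstein-Friesian ratios in 5.98% of all probes.

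C1QA differed by -0.29, -2.20, -1.41 and -2.33, with a mean of -1.56 ± 0.94 (SD, n = 4). The differences of C3 were -0.77, -1.19, -1.44 and -2.67, with a mean of -1.52 ± 0.82 (SD, n = 4). Both genes were lower in Hereford against every bull, but their breed ranges overlapped. CFI had a mean difference of -0.22 ± 0.18 (SD, n = 4). C4A, CFB and CFD were called lower, against 1.15% of all probes, and C3, C1QA and CFI were not. Ordered from the most negative of 17061 differences, C4A ranked 10, CFB 20, CFD 39, C1QA 43 and C3 48.

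Since dye is part of this difference, levels were also compared within a dye, with Limousin taken from the other slide. The difference of C4A was then -2.62 and still called. For CFB it was -1.39 and for CFD -1.30, neither called, and for C1QA it was -1.0. C3 moved the other way, to -2.37, and was not called. In a limma fit of the differences paired by Limousin bull, the calls of C4A, CFB and CFD stood. Without bull 1, CFD was still called at -1.70 and C4A (-2.18) and CFB (-1.93) were not. Leaving out bull 2, 3 or 4 ended all 3 calls, with C4A at -2.49, -2.48 and -2.30, CFB at -2.06, -1.89 and -1.49, and CFD at -1.59, -1.62 and -1.41. Median centring raised the median difference of all probes from 0.02 to 0.36, and the difference of CFD became -0.76 with no call.

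**Figure D2:**
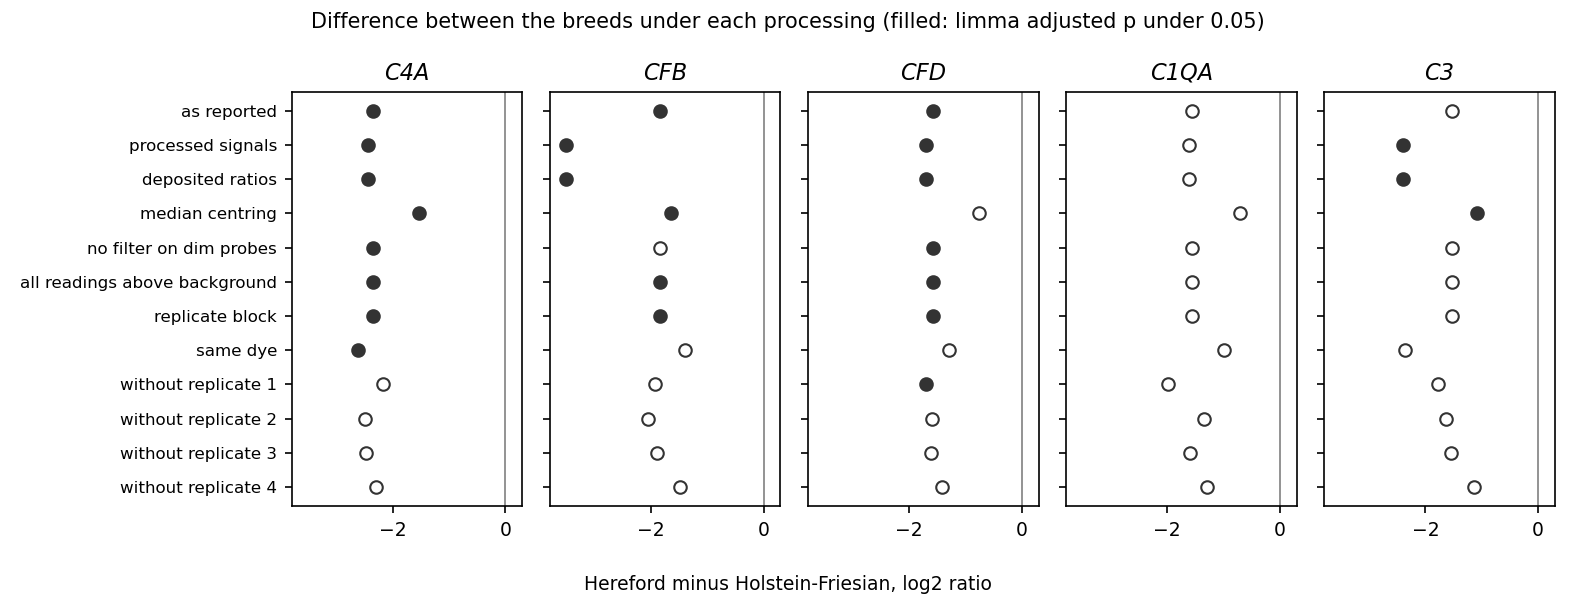
Hereford minus Holstein-Friesian log2 ratio (horizontal axis) of 5 complement genes under the reported processing and 11 others (rows); filled points have a limma adjusted p under 0.05. All points lie below 0, and for C4A they run from -2.62 to -1.54, while no gene is called without the arrays of bull 2, 3 or 4.

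In the mean of both marbled breeds, where a shared dye effect cancels, none of the 6 genes was called, and 0.598% of all probes were. The mean was -0.05 ± 0.52 for C4A, 0.05 ± 0.47 for C1QA and 0.38 ± 0.41 for CFD (SD, n = 4 bulls). CFB stood at 0.56 ± 0.45 and C3 at 0.58 ± 0.58 (SD, n = 4 bulls), both above 0 against all 4 bulls.

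Limousin RNA was read in both dyes, which set each bull against itself across dye and slide. These levels were still normalized on arrays shared with the marbled bulls. The Cy5 level minus the Cy3 level of the same bull was 0.13 ± 0.11 for C4A, -0.23 ± 0.14 for CFB, -0.14 ± 0.04 for CFD and 0.43 ± 0.34 for C3 (SD, n = 4 bulls), and none of these passed in limma (adjusted p of 0.231, 0.0972, 0.116 and 0.110). For C1QA it was -0.28 ± 0.10 (SD, n = 4 bulls), with an adjusted p of 0.0480 in limma, and 4.40% of all probes passed. CFI gave -0.04 ± 0.04 (SD, n = 4 bulls), with a limma adjusted p of 0.618. A Cy5 level below the Cy3 level is the direction that lowers a Hereford ratio and raises a Holstein-Friesian ratio. CFB, CFD, C1QA and CFI had that direction, and C4A and C3 the opposite one. Breed, dye and slide cannot be told apart in the ratios of these genes.

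Levels of single bulls, as log2 normalized intensity of 1 probe, placed Hereford lowest and Holstein-Friesian highest for C4A. Hereford bulls in Cy5 had 9.45, 9.36, 9.54 and 9.70. Limousin bulls had 10.99, 11.06, 9.99 and 10.92 in Cy3 and 11.19, 11.03, 10.16 and 11.11 in Cy5. Holstein-Friesian bulls in Cy3 had 12.56, 11.30, 11.71 and 12.45. The 3 breeds did not overlap in C4A level in any dye. Hereford bulls were close together, with an SD of 0.15, whereas the SD was 0.50 in Limousin in Cy3 and 0.60 in Holstein-Friesian.

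For CFB, Hereford (6.33 to 6.92) and Limousin (6.23 to 7.34 over both dyes) overlapped, and Holstein-Friesian (7.50 to 8.94) lay above both. CFD gave the same order, with Hereford at 9.79 to 10.32, Limousin at 10.07 to 10.65 and Holstein-Friesian clear of both at 11.05 to 12. C3 lay at 6.34 to 7.36 in Hereford, 6.83 to 7.75 in Limousin and 7.36 to 9.80 in Holstein-Friesian, so neighbouring breeds overlapped. C1QA likewise overlapped between neighbours, at 10.24 to 11.24 in Hereford, 10.46 to 11.96 in Limousin and 11.37 to 13.05 in Holstein-Friesian. CFI spanned only 6.07 to 6.44 over all readings. In Holstein-Friesian the bull on array 4 had the highest level of CFB, CFD, C3 and C1QA, and the bull on array 1 the highest of C4A.

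**Figure D3:**
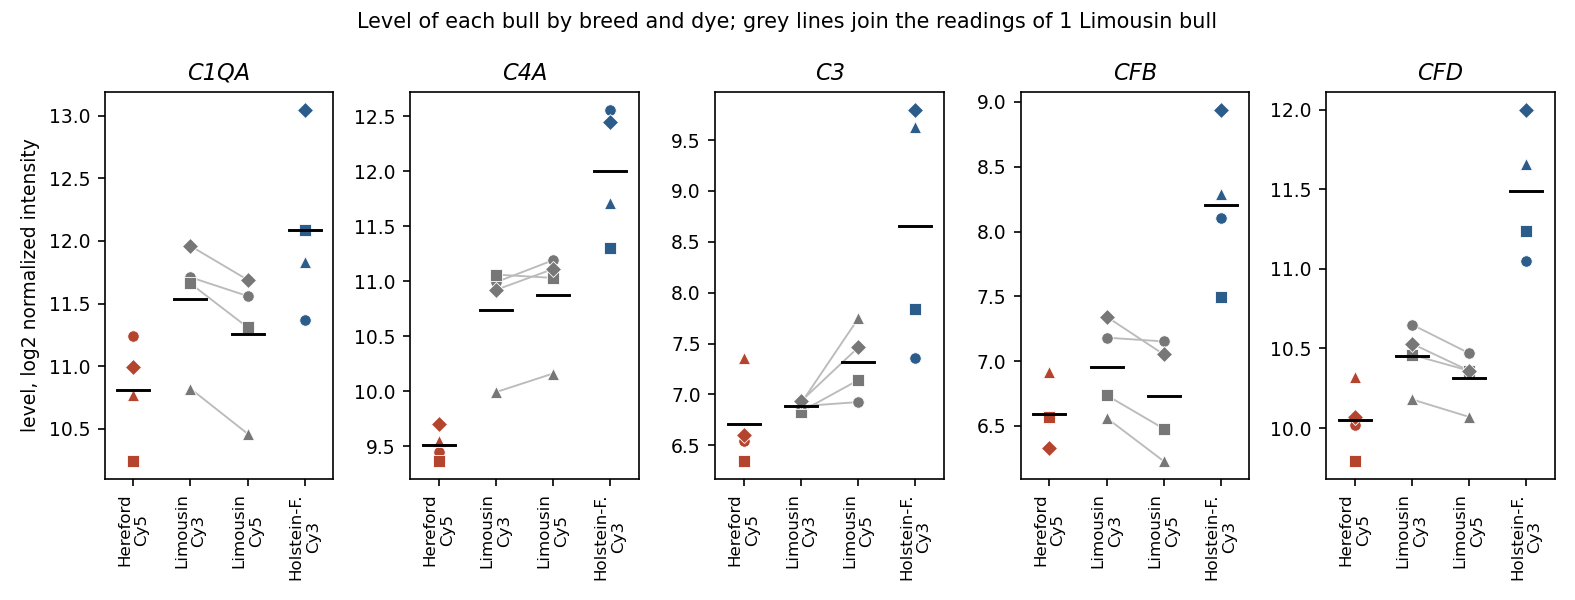
Level of 5 complement genes in each bull (vertical axis, log2 normalized intensity, its own scale in each panel) by breed and dye; shapes mark the array number, black bars the mean of 4 bulls, and grey lines join both readings of a Limousin bull. C4A separates the 3 breeds, and Limousin bull 3 (triangles) is lowest in both dyes for C4A, C1QA, CFB and CFD.

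The Limousin bulls themselves differed. Bull 3 had the lowest Limousin level in both dyes for 5 of the 6 genes (C4A, C1QA, CFB, CFD and CFI), a place it held in 12.2% of all probes. For CFI the margin was small, as all its Limousin readings lay between 6.17 and 6.32. C4A in bull 3 was 9.99 and 10.16 against 10.92 to 11.19 in the other 3 bulls, and C1QA was 10.82 and 10.46 against 11.31 to 11.96. C3 did not follow: bull 3 had the highest Limousin level of C3 in Cy5, at 7.75. All 6 genes had their highest Hereford ratio against bull 3, as 29.8% of all probes did. This pattern was noticed after the values were seen. Without bull 3 the mean Hereford ratios were -1.49 for C4A, -0.60 for CFB, -0.59 for CFD and -0.39 for C3.

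The ratios of the genes were alike in size to different degrees. Over the 8 arrays CFD and C3 had a root mean square difference of 0.33 log2 units, CFB and CFD of 0.36, and CFB and C3 of 0.40. CFB and CFD had the same sign on 8 of 8 arrays, as did CFB and C3, while C4A stood further off, at 0.70 from CFD and 0.91 from C3. Of all named genes, those nearest to CFD were GMFG (0.25), C3 (0.33), ASS1 (0.34), CFB (0.36) and CCL21 (0.37). Those nearest to C4A were PPP1R3B (0.58), CCL21 (0.63), PCOLCE2 (0.68), CFD (0.70) and HARBI1 (0.72). CCL21, a chemokine that guides lymphocytes and dendritic cells, was on both lists, at a mean of -0.60 for Hereford and 1.06 for Holstein-Friesian. Each comparison shares dye, slide and Limousin RNA across the arrays of a breed. The listed complement genes were also chosen by these ratios, so their likeness and shared signs are in part set by that choice.

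C4A and CFB lie close together in the gene order of the bovine assembly ARS-UCD2.0, with STK19, DXO, SKIC2 and NELFE between them and C2 next to CFB. None of the 4 genes between them had a measured named probe. C2, the classical counterpart of factor B, had Hereford ratios of 0.35, 0.31, -0.32 and 0.03 and Holstein-Friesian ratios of 0.33, -0.14, 0.25 and 0.48. Its means, 0.09 ± 0.31 and 0.23 ± 0.27 (SD, n = 4), were not called. Its difference between the breeds was -0.14, against -2.36 for C4A and -1.84 for CFB.

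Beyond the 6 genes, 49 other genes of the complement system were listed, 31 had a named probe and 19 passed the filter. The 12 that had a probe but did not pass, among them C5, C6, C9 and the receptor C5AR1, had at most 3 readings above background. Of the 19, 1 was called higher and 2 lower in Hereford, where 7.14% of all probes were called. In Holstein-Friesian 2 were called higher and 1 lower, where 6.45% of all probes were called. None was called in the mean of both breeds, and 1 was called in the difference, where 2.71% of all probes were. With the Limousin bull as a block, the mean of both breeds was called for CD55 (-0.46, limma adjusted p of 0.00907) and MASP1 (0.50, limma adjusted p of 0.0415). CD55 was also called in that mean with the processed signals (-1.27, limma adjusted p of 0.0226) and with median centring (-0.42, limma adjusted p of 0.0423).

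Among the 7 other components, the median ratio was -0.05 in Hereford and 0.01 in Holstein-Friesian. MASP1, a protease of the lectin route, had Holstein-Friesian ratios of 0.90, 1.34, 1.53 and 0.73, all above 0. The mean was 1.13 ± 0.37 (SD, n = 4), a rise of 2.18-fold, with a limma adjusted p of 0.00982. Its Hereford ratios were -0.32, 0.10, 0.20 and -0.47, and the difference between the breeds was -1.25 with a limma adjusted p of 0.0344. Median centring brought the Holstein-Friesian ratio of MASP1 to 0.56, still called, and the difference to -0.46 with an adjusted p of 0.155. The Holstein-Friesian call ended without bull 2 (1.06, adjusted p of 0.0728), and the call of the difference ended without each bull in turn and within the same dye (-1.02, adjusted p of 0.0653).

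COLEC12, a membrane collectin, also rose in Holstein-Friesian, with ratios of 0.64, 0.70, 0.50 and 0.78 and a limma adjusted p of 0.0240. Its Hereford mean was 0.17 ± 0.36 (SD, n = 4). The call of COLEC12 ended without each bull in turn, at ratios of 0.61 to 0.71, and with median centring, at 0.43.

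Of the 7 regulators, CD46 and CD55 are membrane proteins that shield host cells from complement. CD46 rose in Hereford, with ratios of 1.12, 0.46, 0.81 and 0.24 (limma adjusted p of 0.0280), and stood at 0.04 ± 0.13 (SD, n = 4) in Holstein-Friesian. Its difference between the breeds, 0.62, did not pass (limma adjusted p of 0.115), though it did with median centring (1.32, adjusted p of 0.0128). CD55 fell in Hereford, with ratios of -0.52, -0.53, -0.59 and -0.58 (limma adjusted p of 0.00928). It also fell in Holstein-Friesian, with ratios of -0.33, -0.15, -0.57 and -0.42 (limma adjusted p of 0.0261). CD46 lost its call without each bull in turn (0.50 to 0.80), and CD55 lost it in Hereford without bull 2 (-0.56) or bull 4 (-0.55) and in Holstein-Friesian without each bull (-0.44 to -0.30). Processed signals gave CD55 -1.49 in Hereford and -1.06 in Holstein-Friesian, both called.

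SERPING1, the C1 inhibitor, and CLU, which binds the terminal complex, had no call in the reported processing. SERPING1 stood at -0.29 ± 0.59 in Hereford and 0.76 ± 0.27 in Holstein-Friesian (SD, n = 4), with a limma adjusted p of 0.0627 in the latter. The Holstein-Friesian ratio of SERPING1 passed in limma within the same dye (0.78, adjusted p of 0.0292) and without bull 1 (0.81, adjusted p of 0.0269). It also passed with processed signals (0.80, adjusted p of 0.0461), deposited ratios (0.0464), all readings above background (0.0457) and its own arrays alone (0.0382). It did not pass with the bull as a block (limma adjusted p of 0.0780), without a filter (0.0799) or with median centring, which gave 0.15. The Hereford ratio of SERPING1 was 0.58 against bull 1 and -0.48 to -0.70 against the others, and without bull 1 the Hereford ratio passed at -0.58 (limma adjusted p of 0.0460). CLU stood at -0.74 ± 0.83 in Hereford and 0.49 ± 0.29 in Holstein-Friesian (SD, n = 4). Without bull 1, CLU was called lower in Hereford (-1.13, limma adjusted p of 0.0249), and the difference between the breeds was called for CLU (-1.63, adjusted p of 0.0333) and SERPING1 (-1.39, adjusted p of 0.0308).

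Among the 5 receptors, VSIG4, a macrophage receptor for C3b, fell in Hereford, with ratios of -0.62, -0.77, -0.30 and -0.49 (limma adjusted p of 0.0171). In Holstein-Friesian it stood at -0.02 ± 0.17 (SD, n = 4). The difference of -0.53 did not pass (limma adjusted p of 0.0703). It did pass in limma with the processed signals (-1.73, adjusted p of 0.0328) and with median centring (-0.66, adjusted p of 0.0207). Fitted from the differences paired by bull, it also passed (limma adjusted p of 0.0499). The Hereford ratio of VSIG4 was -1.64 with the processed signals, and its call ended without bull 2 (-0.47) or bull 4 (-0.56). ITGB2, a chain of the C3 fragment receptors, and C5AR2, a receptor for C5a, had mean ratios between 0.15 and 0.34 in both breeds with no call. With the processed signals C5AR2 was called higher at 1.05 in Hereford, 1.22 in Holstein-Friesian and 1.14 in both together (limma adjusted p of 0.0367, 0.0111 and 0.0302), and with median centring at 0.49 in Holstein-Friesian.

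**Figure D4:**
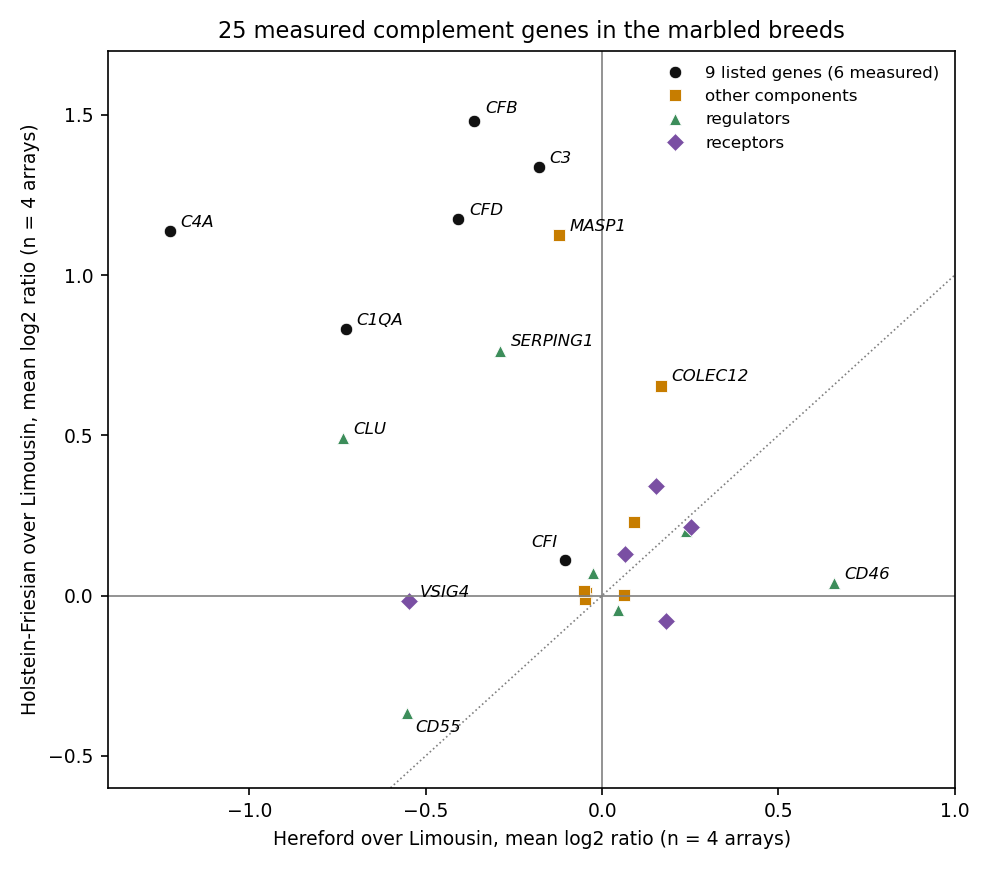
Mean log2 ratio over Limousin of 25 measured complement genes in Hereford (horizontal axis) and Holstein-Friesian (vertical axis), n = 4 arrays each; the dotted line marks equal ratios. C4A, C1QA, CFB, CFD and C3 lie in the upper left with MASP1, SERPING1 and CLU, and most other components, regulators and receptors lie near 0 in both breeds.

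Markers of cell types that make complement were read beside these values. Of 15 listed macrophage markers 8 were measured. Their median ratio was -0.27 in Hereford, with 1 of 8 above 0, and 0.41 in Holstein-Friesian, with 8 of 8 above 0. None was called in either breed or in the difference between breeds, whose median was -0.60. CD14 stood at -0.26 and 0.49, LAPTM5 at -0.08 and 0.61, AIF1 at -0.28 and 0.62, and CD74 at 0.68 and 0.71, in Hereford and Holstein-Friesian. The summed macrophage level, on the log2 scale, was 11.55 to 11.77 in Hereford, 11.13 to 11.91 in Limousin and 11.76 to 12.82 in Holstein-Friesian. Limousin bull 3 had the lowest summed level in both dyes, 11.13 and 11.43, and the Holstein-Friesian bulls on arrays 3 and 4 the highest, 12.63 and 12.82. The median of the 8 markers was -0.12 and -0.01 on Holstein-Friesian arrays 1 and 2 and 0.87 on arrays 3 and 4, while the median of the 6 complement genes was 0.51 and 0.74, then 1.57 and 1.5. In Hereford the summed macrophage level was above that of the Limousin bull on arrays 1 and 3, where the median of the 8 markers was -0.35 and 0.12. A summed level adds intensities before the log, so the brightest probes weigh most. Here these were CD74 and LAPTM5, with mean levels of 10.31 and 10.29, and CD74 was the only marker above 0 in Hereford. The part of macrophages in the complement values was not tested. CD163, CSF1R and MRC1 had no measured named probe.

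Adipocyte markers, of which 13 of 15 were measured, had medians of 0.02 in Hereford and -0.14 in Holstein-Friesian. The summed adipocyte level overlapped between all breeds, at 13.48 to 14.05 in Hereford, 13.58 to 14.19 in Limousin and 13.23 to 14.28 in Holstein-Friesian. AGPAT2, the brightest of these markers (mean level 13.04), weighs most in it. The Limousin Cy5 level of AGPAT2 minus its Cy3 level was -0.37 (limma adjusted p of 0.0414). Only CIDEA, a lipid droplet protein, was called, and it fell in Holstein-Friesian (-0.42, limma adjusted p of 0.0470). CIDEA was about as low in Hereford (-0.39, limma adjusted p of 0.0567), with a difference between the breeds of 0.03. CFD, a product of fat cells, stood at -0.41 in Hereford and 1.17 in Holstein-Friesian. FABP4 stood at 0.49 ± 2.13 in Hereford and -0.64 ± 1.67 in Holstein-Friesian (SD, n = 4), and LPL and AGPAT2 had no call.

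Of 9 listed liver markers 6 were measured, with medians of 0.15 in Hereford and 0.12 in Holstein-Friesian. Only FGB was called, in Holstein-Friesian (0.34, limma adjusted p of 0.0256), with 13 of 16 readings above background. In Hereford FGB stood at 0.24 (limma adjusted p of 0.0639). TTR had the largest ratios of the list, 0.75 in Hereford and 0.99 in Holstein-Friesian, with no call. The summed liver level was 12.49 to 12.70 in Hereford, 12.20 to 12.57 in Limousin and 12.29 to 13.63 in Holstein-Friesian. APOA2, the brightest of these markers, weighs most in it, with a mean level of 12.24 against 6.34 for FGB. SERPINA1 had 0 of 16 readings above background and AHSG 3 of 16. Lymphocyte markers had medians of 0.08 and 0.02 over 7 of 10, and CD3E (0.52, limma adjusted p of 0.0448) and CD8A (0.51, limma adjusted p of 0.0458) rose in Holstein-Friesian. Their summed level overlapped between the breeds, at 14.34 to 14.72 in Hereford, 14.07 to 14.72 in Limousin and 14.48 to 14.77 in Holstein-Friesian. CD4 weighs most in that sum, with a mean level of 14.45 against 7.13 for CD3E and 6.96 for CD8A, so it says little of the others.

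Fibroblast markers, 9 of 13 measured, had medians of -0.08 in Hereford and -0.35 in Holstein-Friesian, where COL3A1 fell by 2.53 (limma adjusted p of 0.0125). COL6A1 stood at -0.35 in Holstein-Friesian (limma adjusted p of 0.0282), and its Limousin level was 0.35 higher in Cy5 than in Cy3 (limma adjusted p of 0.0367), so breed, dye and slide cannot be told apart there. Of 12 muscle fibre markers 8 were measured, with a median of 0.44 in Hereford, where 8 of 8 were above 0, and -0.02 in Holstein-Friesian. The array medians of these markers were 0.28 to 0.58 in Hereford and -0.24 to 0.15 in Holstein-Friesian. Their summed level was 20.20 to 20.29 in Hereford and 19.86 to 20.18 in Holstein-Friesian. The same Limousin bulls read 19.70 to 19.82 in Cy3, against Hereford, and 20.11 to 20.21 in Cy5, against Holstein-Friesian. Breed, dye and slide cannot be told apart in these ratios, and the part of the fibre level in the complement values was not tested. MYH7, the slow myosin, rose in Hereford (1.18, limma adjusted p of 0.0470). In Holstein-Friesian MYH7 stood at 1.06 and was not called (limma adjusted p of 0.0681). Its mean of both breeds was called (1.12, limma adjusted p of 0.0458), and its difference between the breeds, 0.12, was not. MB, myoglobin, and TNNC2, fast troponin C, stood lower in Holstein-Friesian at -1.02 and -0.68 (limma adjusted p of 0.0167 and 0.0187). The Limousin levels of MB and TNNC2 were 0.47 and 0.57 higher in Cy5 than in Cy3 (limma adjusted p of 0.0586 and 0.0378). That direction lowers a Holstein-Friesian ratio and raises a Hereford ratio. For MYH7 the Limousin level was 0.45 higher in Cy5 (limma adjusted p of 0.146). Endothelial markers had medians of -0.04 and 0.11 over 5 of 9, and blood markers of 0.12 and 0.09 over 3 of 7, with no call in either list. Interferon-induced genes had a median of -0.33 over 10 of 18 in Hereford, with RTP4 called at -1.39 (limma adjusted p of 0.0390). In Holstein-Friesian their median was -0.21, with MX1 called at -1.53 and RSAD2 at -0.60 (limma adjusted p of 0.0402 and 0.0446). MX1 stood at -1.35 in Hereford, where it was not called (limma adjusted p of 0.0547). In Holstein-Friesian 4 of the 10 genes were above 0, PSMB9 (0.72), PSMB8 (0.45), IRF9 (0.21) and GBP5 (0.09), and none of these was called. IRF9, the brightest of the list, stood at -0.92 in Hereford. ISG15 had the lowest Hereford ratio of the list, -2.14, and stood at -1.19 in Holstein-Friesian, with no call (limma adjusted p of 0.0895 and 0.318). The interferon median was -0.50 to -0.06 on Holstein-Friesian arrays 1, 2 and 4 and 0.62 on array 3, where CFB had its highest ratio. Limousin bull 3, on that array, had the lowest summed interferon level in both dyes, 11.23 and 11.11, against 12.07 to 12.70 in the other Limousin bulls. It was also the lowest Limousin bull for CFB. The Holstein-Friesian bull on array 3 stood at 12.02, within the 11.27 to 12.10 of its breed. A link between interferon-induced genes and CFB was not tested.

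These marker calls ended in some or all of the fits that left out the arrays of 1 Limousin bull. Probes called over the whole array fell in those smaller fits too, to as few as 78 in Holstein-Friesian and 30 in Hereford. CIDEA (-0.50 to -0.30), FGB (0.30 to 0.39), RSAD2 (-0.71 to -0.53) and CD3E (0.36 to 0.62) lost their calls without each bull in turn. CD8A, COL6A1, MYH7 and TNNC2 were still called only without bull 1, at adjusted p values up to 0.216, 0.134, 0.183 and 0.105 in limma otherwise. MX1 (-1.94 to -1.28) and RTP4 (-1.58 to -1.31) were still called only without bull 3, and COL3A1 (-2.79 to -1.96) and MB (-1.13 to -0.90) only without bull 1 or bull 3.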

How the data were processed

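Total RNA of muscle from 12 bulls was hybridised to 8 arrays. The submitters' processing notes name version 10.7.3.1 of Agilent Feature Extraction. Spot and background brightness, and processed signals, stood as intensity per the file headers. Values of the deposited table were on the log10 scale, Cy5 over Cy3, and matched the scanner's log ratio in 44407 of 44407 spots per array. Flags for background, saturation and outliers were read as flags per the file headers, and 0 spots were saturated.

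Median signals were used because the planned mean signals were not among the columns read. They were corrected with limma 3.58.1 in R 4.3.3 (normexp, offset 50, which draws ratios of dim probes towards 0), normalized by loess (span 0.3) and turned to breed over Limousin. Levels were scaled between arrays with Aquantile. Control and outlier spots (6 to 29 per array) were left out and the 2 spots of a probe averaged. Of 21475 probes 17061 passed the filter. A reading counted when a share of at least 0.5 of its spots was well above background, and 7079 kept probes were named through a RefSeq table of ARS-UCD2.0, used for names and gene order only since the array follows another build.

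Breed means were fitted over 8 arrays with lmFit and eBayes, two-sided, without a block. The mean of both breeds used 1 value per Limousin bull. The labels give each Limousin bull 1 number on both slides, which pairs the arrays. Deviations of paired arrays correlated at 0.0987 to 0.500. The fit was tested on simulated data with known changes.

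The members and lists were chosen with earlier results of these data known. Named were all members and the 5 named genes nearest to C4A and to CFD. Other complement genes were named when called in any comparison or among the 3 largest ratios of their list. Of the markers, those called were named, with some but not all of the 3 brightest of a list. A few further markers were chosen after their values were seen (CD14, FABP4, PSMB9, GBP5, ISG15 and the marker genes named as absent or dim).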

Additional observations from a re-analysis of the deposited data

Results flagged for a closer look

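In a group of 4 arrays, 2 values of the measured genes lay far enough from the other 3 to exceed Dixon's limit at 95%. Chance exceeds that limit in about 1 of 20 groups, and every measured gene was checked in both breeds. The Holstein-Friesian ratio of C4A against Limousin bull 2 was 0.27, against 1.34 to 1.55 on the other arrays. The Hereford ratio of C3 against Limousin bull 3 was 0.44, against -0.49 to -0.33 on the other arrays.

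The ratios over Limousin differed between the marbled breeds for 3 genes in limma's contrast of the breed means. Hereford minus Holstein-Friesian was -2.36 for C4A, -1.84 for CFB and -1.58 for CFD. Hereford carried Cy5 on 1 slide and Holstein-Friesian Cy3 on the other, so breed, dye and slide cannot be told apart in these values.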

How the results depend on the processing

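Over 272 values of the 6 genes under other processing choices, 268 kept their direction; the 4 that did not were means of both breeds near 0. In all, 38 values lost a call, 5 gained one and 9 moved by more than the array spread without a call. Under median centring 315 probes were called in Hereford (87.0% higher, against 47.5% of 1218), 6678 in Holstein-Friesian (29.0%, against 46.5% of 1100), 950 in both breeds (23.1%, against 53.9% of 102) and 6219 in the difference (78.1%, against 57.5% of 463). Median centring also moved the median of all probes to 0.10, -0.20 and 0.36 in Hereford, Holstein-Friesian and the difference. Processed signals gave 2157, 444 and 974 calls, and deposited ratios 2129, 438 and 979, in Holstein-Friesian, both breeds and the difference. Of the calls in the difference, 66.3% and 67.6% were then higher. With no filter 42 probes were called in both breeds, and with all readings above background 371. With the replicate block, 910 probes were called in both breeds (43.3% higher). The difference, then fitted from values paired by bull, had 701 calls. Neither the block nor the paired fit changed a call of the 6 genes. Within the same dye 683 were called in Hereford and 231 in the difference (47.2% higher), and from its own arrays alone Hereford had 27. Leaving out a Limousin bull gave 30 to 1055 calls in Hereford, 78 to 810 in Holstein-Friesian, 0 to 1 in both breeds and 0 to 457 in the difference. Where limma gave 0 calls, 2217 to 3340 probes had an unadjusted p under 0.05. Without a filter CFB was no longer called in the difference (adjusted p of 0.0519) and C3 no longer in Holstein-Friesian (0.0577). C3 gained a call in the difference with processed signals (-2.39), deposited ratios (-2.39) and median centring (-1.08). CFI gained one with median centring in Holstein-Friesian (0.47) and in the difference (-0.73). A mean over several probes of a gene gave no value, since each of the 6 genes had 1 kept probe. Signal limits CFI most, with 7 of 16 readings above background.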
